A study of Homo sapiens with 6 samples.

Results

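The genes followed here were 10 members of the epidermal growth factor (EGF) system, the ligands AREG, EREG, HBEGF, TGFA, BTC, EPGN and NRG1 and the receptors EGFR, ERBB2 and ERBB3. They were taken by gene symbol from the 54308 genes of the deposited RNA-Seq table, and all 10 are listed there. The RNA came from 143B, an established human osteosarcoma (OS) cell line. The vector control group (VC, genotype control) was transfected with a vector plasmid and the CNTNAP4 KO group (KO) with a CNTNAP4 KO plasmid, with 3 libraries in each group, and the labels give 48 h where the study's methods give a longer incubation before sorting. The study's methods state that both plasmids carried Cas9 and a guide RNA, and that the RNA was drawn from clonal cells grown out of sorted single cells. The labels do not say which colony gave which library, so the p-values measure the spread between these RNA samples, which the study calls biological replicates, and the deletion cannot be told apart from other differences between the clones.

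EGF-family ligands are made as membrane-anchored precursors that are cut loose at the cell surface, chiefly by metalloproteases such as ADAM17. AREG (amphiregulin), EREG (epiregulin), HBEGF (heparin-binding EGF-like growth factor), TGFA (transforming growth factor alpha), BTC (betacellulin) and EPGN (epigen) bind EGFR, whereas NRG1 (neuregulin 1) binds ERBB3 and ERBB4. ERBB2 has no known ligand of its own and acts as a partner of the other receptors, and ERBB3, whose kinase is weak, relies on that partner. Ligand binding pairs the receptors and turns on the RAS-ERK and PI3K-AKT cascades, and in bone EGFR signaling is known to support the growth of osteoblast progenitors.

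The deleted gene, CNTNAP4, was detected only in VC replicate 3 (log2 signal -7.18), so the table gives no fold change for it. The libraries held values for 20333 to 21041 genes, and the authors' quantile normalization had given each library a median log2 signal of 0.62, so read depth is unknown. The summed linear signal of 10 osteoblast and mesenchymal markers, most of it VIM, was 1415 to 1589 in VC and 1707 to 2119 in KO. Of the 8 of them tested, ALPL, COL1A1, SPARC and CDH2 were higher and COL1A2 lower in KO (limma adjusted p under 0.05). VIM (log2 fold change 0.38, limma adjusted p = 0.0667), RUNX2 and SP7 did not pass this threshold. The part of this marker difference in the results on the EGF system was not tested. The late osteoblast markers were low or absent, with IBSP listed without a value in any library and BGLAP detected in KO alone, in replicates 1 and 2. The summed linear signal of 8 epithelial markers was 3.30 to 3.68 in VC and 2.11 to 2.55 in KO, with KRT14 absent from all libraries and CDH1 present in 1. This sum, most of it EPCAM, was lower in every KO library than in any VC library. KRT5 was not tested, since it had log2 signals of -5.34, -5.86 and -6.0 in VC and no value in KO. Of the 5 tested, EPCAM and CLDN4 were lower in KO (limma adjusted p under 0.05), and CLDN7 had a lower mean without passing this threshold. ESRP1 (log2 fold change 3.23, limma adjusted p = 0.0854) and KRT19 (1.01, adjusted p = 0.471) had higher means in KO, also without passing it. The part of these differences in the results on the EGF system was not tested. The sum of leukocyte and endothelial markers was 0.143 to 0.231 in VC and 0.0422 to 0.117 in KO.

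In VC cells the EGF system was dominated by its main receptor, EGFR, and by a single ligand, HBEGF. In CNTNAP4 KO cells AREG and HBEGF rose, EGFR, NRG1 and TGFA fell, and ERBB2 did not differ beyond its replicate spread. AREG showed the largest change of the 9 genes tested, a 14.3-fold rise, and EGFR dropped to 0.408 of its VC signal. BTC and EPGN were low in both groups, and EREG had a value in 1 VC library and in no KO library. In bulk RNA, fewer cells that express a gene and less RNA per cell cannot be told apart.

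**Figure D1:**
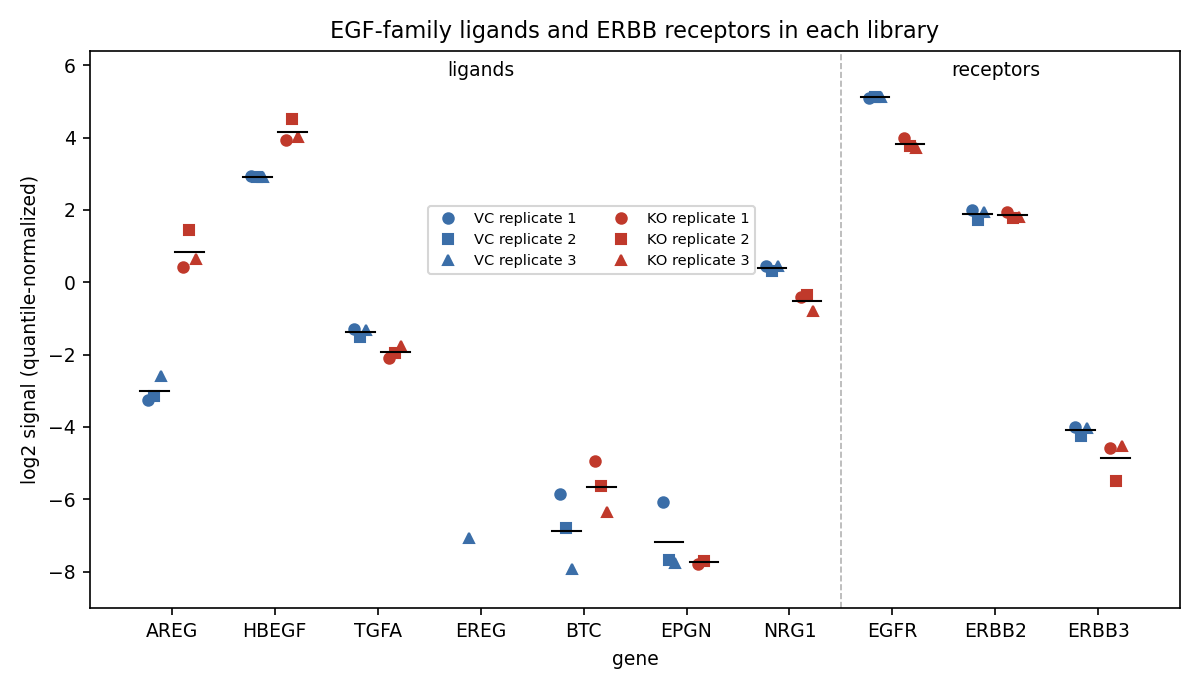
Log2 signals (vertical axis) of the 10 genes (horizontal axis) in each library, with VC in blue, KO in red, 1 marker shape for each replicate number and black lines at group means of at least 2 values. The KO points of AREG and HBEGF lie above all VC points, those of TGFA, NRG1, EGFR and ERBB3 lie below them, and EREG has a point in VC replicate 3 alone.

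AREG is an inducible ligand of EGFR, and its gene lies on chromosome 4 beside those of EPGN, EREG and BTC. Its log2 signals, given here and for the genes that follow in the order of the replicate numbers, were -3.26, -3.15 and -2.60 for VC and 0.43, 1.45 and 0.63 for KO. The KO libraries all lay above the VC libraries, with KO replicate 2 the highest. On the log2 scale AREG rose by 3.84 (standard error 0.33, limma adjusted p = 0.00675), the 19th largest rise among the 19306 genes tested. It remained between 3.53 and 4.04 with any single library left out, with an adjusted p of at most 0.0348. On the log2 scale of the linear signal plus 1, which compresses low signals, the rise was 1.32 (adjusted p = 0.0071).

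HBEGF, a ligand that stays bound to heparan sulfate, had log2 signals of 2.93, 2.90 and 2.90 in VC and 3.93, 4.51 and 4.02 in KO. The VC libraries were nearly alike, and each KO library was about 1 log2 unit or more above them, again with KO replicate 2 the highest. The log2 fold change was 1.24 (standard error 0.17, adjusted p = 0.0109), a 2.37-fold rise, and it lay between 1.06 and 1.36 with single libraries left out, with an adjusted p of at most 0.0467.

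The stretches of 250 bases before the annotated starts of AREG, HBEGF and EGFR are printed because these genes showed the largest changes past the threshold. They come from a table of RefSeq promoters on GRCh38.p14, in which 8 of the 10 genes were matched. The window was taken before the outermost annotated start of each gene, so promoters at other starts were not searched. The promoters of NRG1 and ERBB3 were not analysed here. The motifs searched on both strands were the cAMP response element TGACGTCA and its shorter form TGACG, which overlap, the AP-1 site TGANTCA, the ATF4-CHOP site TGATGNAA, the GC box GGGCGG and the TATA box TATAAA. Capitals mark every match to these motifs.
AREG, chr4:74444886-74445135, plus strand: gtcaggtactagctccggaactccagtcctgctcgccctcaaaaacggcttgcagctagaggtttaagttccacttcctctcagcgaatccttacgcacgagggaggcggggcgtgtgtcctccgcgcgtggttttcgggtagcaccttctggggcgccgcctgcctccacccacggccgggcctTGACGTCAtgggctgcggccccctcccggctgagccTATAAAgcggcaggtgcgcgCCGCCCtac
HBEGF, chr5:140346604-140346853, minus strand: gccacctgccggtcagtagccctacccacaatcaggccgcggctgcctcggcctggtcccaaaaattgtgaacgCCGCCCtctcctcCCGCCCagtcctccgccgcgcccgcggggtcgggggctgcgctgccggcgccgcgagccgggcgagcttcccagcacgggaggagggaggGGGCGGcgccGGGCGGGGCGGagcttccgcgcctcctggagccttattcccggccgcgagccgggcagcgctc
EGFR, chr7:55018767-55019016, plus strand: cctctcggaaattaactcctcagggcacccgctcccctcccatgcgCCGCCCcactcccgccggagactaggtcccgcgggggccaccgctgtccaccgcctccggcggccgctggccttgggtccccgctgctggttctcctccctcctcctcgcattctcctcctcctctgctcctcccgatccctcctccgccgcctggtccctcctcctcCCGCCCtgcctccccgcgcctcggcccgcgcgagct

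The AREG window held 1 full cAMP response element, which begins 65 bases before the start, and 1 TATA box, which begins 29 bases before it. It also held 1 GC box, which begins 9 bases before the start. Of 35116 RefSeq windows of this length, 1.65% held the full element and 10.7% the TATA box. The HBEGF window had no match to either, or to the AP-1 and ATF4-CHOP sites, and held 5 GC boxes, a motif present in 42.6% of all windows. EGFR had 2 GC boxes and no match to the other motifs. Among the other ligands, the TATA box was also found before EREG and EPGN, and the shorter TGACG before EREG, EPGN and TGFA, against 21.2% of all windows. The TGFA window also held 3 GC boxes. The AP-1 site, present in 6.57% of windows, was found before ERBB2 alone, and the ATF4-CHOP site, in 3.14% of windows, before none of the 8 genes. These matches describe the letters only, and no binding was measured.

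TGFA, a ligand of EGFR that tumor cells often make for themselves, moved the other way. Its log2 signals were -1.28, -1.52 and -1.31 in VC and -2.10, -1.96 and -1.75 in KO, with every KO library below every VC library. The log2 fold change was -0.57 (standard error 0.13, adjusted p = 0.0276). This call was the least stable of those made, since the adjusted p was 0.088, 0.0501 and 0.0888 without VC replicates 1, 2 and 3 and 0.064 without KO replicate 2.

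BTC had log2 signals of -5.85, -6.80 and -7.94 in VC and -4.95, -5.64 and -6.36 in KO. The groups overlapped, and the log2 fold change of 1.22 had a 95% confidence interval from -0.37 to 2.80 (adjusted p = 0.185). EPGN was at -6.08, -7.67 and -7.77 in VC and at -7.79 and -7.70 in the first pair of KO replicates, while KO replicate 3 lacked a value (log2 difference -0.58, 95% confidence interval -2.16 to 1.01, adjusted p = 0.486). EREG had a single value, -7.06 in VC replicate 3, and was not tested. The intervals of BTC and EPGN are wide, so these libraries could show only large differences in them.

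NRG1, the member that signals through ERBB3 and ERBB4 and not through EGFR, was at 0.45, 0.31 and 0.44 in VC and at -0.42, -0.35 and -0.80 in KO, and the groups did not overlap. The log2 fold change was -0.92 (standard error 0.14, adjusted p = 0.0132), to 0.528 of the VC signal. The adjusted p was 0.0533 without VC replicate 1 and 0.0548 without VC replicate 3. NRG1 lies on chromosome 8, where the median over the other 635 genes tested was -0.32, against -0.11 on other chromosomes. Of these 635 genes 34.2% were lower in KO, against 19.8% of all genes tested. The part of this chromosome-wide shift in the NRG1 result was not tested.

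EGFR, the receptor of the other 6 ligands, had log2 signals of 5.10, 5.13 and 5.12 in VC and 3.98, 3.77 and 3.70 in KO. The VC libraries differed by 0.029 at most and the KO libraries by 0.28, and the groups stood more than 1 log2 unit apart. The log2 fold change was -1.29 (standard error 0.094, adjusted p = 0.00571), with a range from -1.38 to -1.24 and an adjusted p of at most 0.036 with single libraries left out. EGFR lies on chromosome 7, where 27.1% of the other genes tested were lower in KO, against 19.8% of all genes tested. The median log2 fold change was -0.19 there and -0.12 on other chromosomes. The part of this shift in the EGFR result was not tested. An annotated antisense gene overlaps EGFR, and the sources used here do not state whether reads were counted by strand.

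ERBB2, the ligandless partner, was at 2.0, 1.72 and 1.94 in VC and 1.95, 1.79 and 1.81 in KO, so the groups overlapped. Its log2 fold change of -0.039 had a 95% confidence interval from -0.30 to 0.23 (adjusted p = 0.795), and its sign turned to 0.045 with median-centred libraries and to 0.019 without VC replicate 1. ERBB3 was low throughout, at -4.01, -4.24 and -4.03 in VC and -4.57, -5.48 and -4.54 in KO. Every KO value of ERBB3 lay below every VC value, with KO replicate 2 the lowest, and the difference was -0.77 on the log2 scale (standard error 0.28, adjusted p = 0.0842). Without KO replicate 2 it was -0.47 with an adjusted p of 0.0409, the only 1 of 6 fits with a library left out that passed. In the other such fits the adjusted p was 0.0715 to 0.186.

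**Figure D2:**
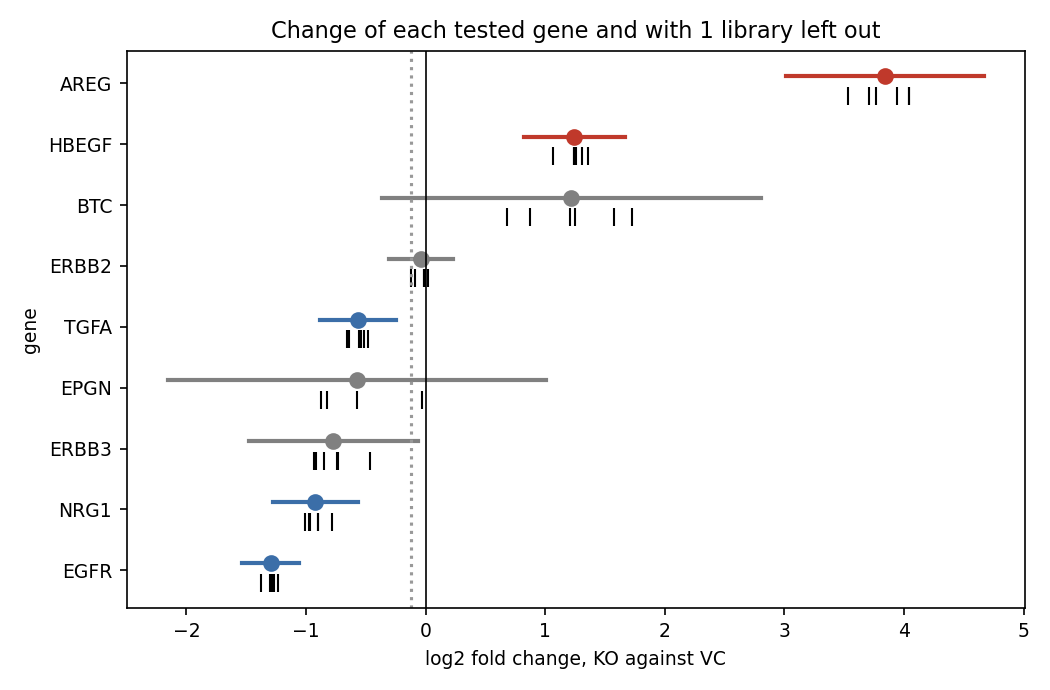
Log2 fold change of KO against VC (horizontal axis) for the 9 genes tested (vertical axis), with circles and lines for the estimate and its 95% confidence interval, red for higher, blue for lower and grey for not past the threshold, and black ticks for the estimate with 1 library left out. The dotted line is the median of all genes tested, -0.13, and the ticks of AREG, HBEGF and EGFR stay far from it.

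In all, 9 of the 10 genes had at least 2 values in each group and were tested, of which AREG and HBEGF were higher and TGFA, NRG1 and EGFR lower at an adjusted p under 0.05. Among all 19306 genes tested, 32.9% were past this threshold, 13.1% higher and 19.8% lower in KO. AREG, HBEGF and EGFR were also changed at least 2-fold, as were 9.53% of all genes. Without VC replicate 1 or VC replicate 3 these same 3 genes were called. The groups did not overlap in 6 of the 8 genes with 6 values, where 59.3% of all genes with 6 values had groups that did not overlap. KO lay above VC in 2 of them and below in 4, against 22.6% and 36.7% of all such genes. At an unadjusted p under 0.05, which 47.9% of all genes reached, ERBB3 joined the 5 genes called. An exact two-sided permutation test of 3 libraries against 3 cannot give a p under 0.1, and these 6 genes reached 0.1. TGFA, NRG1 and EGFR are in the list of MAPK cascade genes that the study drew from its own differentially expressed genes in these libraries, so their direction is not independent evidence. The KO libraries were more spread than the VC libraries in 6 of the 8 genes, as in 70.2% of all genes with 6 values.

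To set levels of different genes side by side, the scale of the signals was first examined. Among 828 protein-coding genes with a value in 1 library, of which 815 had an annotated exon length, the log2 signal fell by 0.91 for each doubling of exon length (Pearson's r = -0.74 across genes, which are not independent replicates), close to the fall of 1 expected of a signal per length. In VC the log2 levels per length ran in the order EGFR (5.11 ± 0.015, SD, n = 3), HBEGF (2.91 ± 0.02), ERBB2 (1.89 ± 0.15), NRG1 (0.40 ± 0.077), TGFA (-1.37 ± 0.13), AREG (-3.0 ± 0.35), ERBB3 (-4.09 ± 0.13), BTC (-6.87 ± 1.04) and EPGN (-7.17 ± 0.95). Each neighbor was separate from the next in all 3 VC libraries, except BTC and EPGN. In KO, HBEGF (4.15 ± 0.31, SD, n = 3) had moved level with EGFR (3.82 ± 0.15), and AREG (0.84 ± 0.54) had moved above NRG1 (-0.52 ± 0.24) and TGFA (-1.94 ± 0.18) in every library. HBEGF and EGFR were not separable in KO, with a log2 gap of 0.33 ± 0.40 (SD, n = 3) that ran from -0.058 in KO replicate 1 to 0.74 in KO replicate 2.

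The balance of ligand and receptor transcripts therefore differed between the groups on the linear scale. The summed linear signal of the 6 EGFR ligands was 8.18, 7.92 and 8.04 in VC and 16.8, 25.8 and 18.1 in KO, whereas that of the 3 receptors was 38.3, 38.3 and 38.6 in VC and 19.7, 17.1 and 16.6 in KO. The ligand sum was 2.52 times as high in KO as in VC and the receptor sum 0.464 times, each with groups that did not overlap (p = 0.1, the least that the two-sided exact permutation test allows). Most of the ligand sum was HBEGF and most of the receptor sum EGFR. The result for the sums thus follows from these genes and is no further evidence. HBEGF supplied 92.7 to 94.0% of the ligand sum in VC and 88.3 to 90.4% in KO. The share of AREG went from 1.58 ± 0.41% in VC to 9.05 ± 1.38% in KO (SD, n = 3), and that of TGFA from 4.81 ± 0.37% to 1.34 ± 0.33%. EGFR made up 90.2 ± 0.98% of the receptor sum in VC and 79.5 ± 0.77% in KO, and the share of ERBB2 rose with the fall of EGFR from 9.67 ± 0.96% to 20.3 ± 0.74%, its own signal being alike in the groups.

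**Figure D3:**
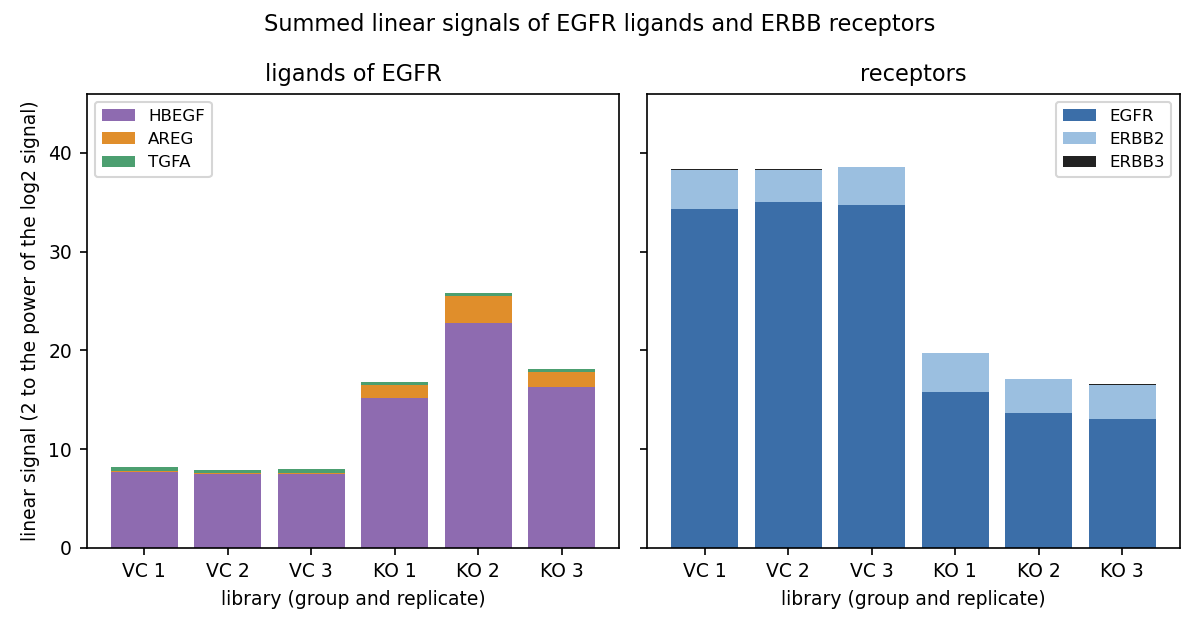
Linear signals (vertical axis, in the unstated linear unit of the table) stacked for HBEGF, AREG and TGFA (left) and for EGFR, ERBB2 and ERBB3 (right) in each of the 6 libraries (horizontal axis); EREG, BTC and EPGN are too small to show. The ligand bars are near 8 in VC and between 16.8 and 25.8 in KO, and the receptor bars go from above 38 to below 20.

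Within libraries, the log2 difference of HBEGF and EGFR was -2.17, -2.23 and -2.22 in VC and -0.06, 0.74 and 0.32 in KO, a shift of 2.54. The log2 difference of AREG and TGFA turned from -1.63 ± 0.35 in VC to 2.78 ± 0.56 in KO (SD, n = 3). For HBEGF and TGFA it widened from 4.28 ± 0.12 to 6.09 ± 0.35 (SD, n = 3). Each of these differences had groups that did not overlap (exact permutation test, two-sided p = 0.1). This follows from the single genes, since the KO values of HBEGF and AREG lay above all VC values and those of EGFR and TGFA below. It is therefore no further evidence. Being taken within a library, the differences do not depend on how the libraries were centred, but they can depend on the quantile normalization.

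The region around AREG was examined next. Of the 10 tested genes nearest to it in RefSeq order on chromosome 4, 5 on each side, 2 were higher in KO, the chemokine gene CXCL3 (log2 fold change 2.17, adjusted p = 0.00963) and THAP6 (0.32, adjusted p = 0.0433), and none was lower. Genes short of the threshold went both ways, from CXCL2, another chemokine gene (1.51, adjusted p = 0.0512), to EPGN (-0.58, adjusted p = 0.486). The direct neighbors of AREG among tested genes were EPGN and BTC, neither of which passed the test. On chromosome 4 as a whole 14% of the other genes tested were higher, against 13.1% of all genes.

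Other genes of the pathway were examined in 4 lists, described here by counts and medians. Over all genes tested the median was -0.13, with 13.1% higher and 19.8% lower in KO at an adjusted p under 0.05. Whether the counts of a list depart from these shares was not tested. Of the other family members, EGF, NRG2, NRG3, NRG4 and ERBB4, 4 were tested and 0 had an adjusted p under 0.05 with limma or an unadjusted p under 0.05. NRG2, which binds the same receptors as NRG1, was at 0.31 ± 0.17 in VC and 0.36 ± 0.048 in KO (SD, n = 3). ERBB4, the remaining receptor, had a mean log2 signal of -6.95 in VC and -7.60 in KO (adjusted p = 0.44), and NRG3 had a value in 1 library. EGF had an adjusted p of 0.0327 without KO replicate 1 (log2 fold change 0.67) and of 0.479 with all libraries. That was the only 1 of 6 fits with a library left out in which EGF passed, and its adjusted p reached 0.786 without KO replicate 2.

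Of 12 genes of ligand release, 11 were tested, of which 4 were higher and 2 lower in KO, with a median log2 fold change of -0.035. RHBDF1, an inactive rhomboid that escorts ADAM17 to the cell surface, rose from 1.48 ± 0.21 to 2.86 ± 0.29 (SD, n = 3, log2 fold change 1.38, adjusted p = 0.0111). The metalloproteases ADAM19 (0.80, adjusted p = 0.015) and ADAM9 (0.58, adjusted p = 0.011) also rose. ADAM17, the main sheddase of AREG, HBEGF and TGFA and the fourth gene that rose, was at 1.05, 1.06 and 1.02 in VC and 1.33, 1.70 and 1.48 in KO (log2 fold change 0.46, adjusted p = 0.0312), and was singled out after its value was seen. ADAM12, a metalloprotease that can also cut HBEGF, fell by 1.61 (adjusted p = 0.0177), and the proprotein convertase PCSK6 fell by 0.55 (adjusted p = 0.0202). With single libraries left out the list had from 1 call, without VC replicate 3, to 7, without KO replicate 1, and also 2, 3 and 2 without VC replicate 1, VC replicate 2 and KO replicate 3. RHBDF1 kept an adjusted p of at most 0.0451 in these fits, and the highest adjusted p, each without VC replicate 3, was 0.0578 for ADAM19, 0.0517 for ADAM9, 0.0969 for ADAM17, 0.064 for ADAM12 and 0.0747 for PCSK6.

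All 22 adaptors and proximal effectors, proteins that dock on activated receptors or act close to them, were tested. Of these, 9 were lower and 1 higher in KO, with a median of -0.22. The RAS exchange factor SOS1 fell from 3.33 ± 0.094 to 2.34 ± 0.44 (SD, n = 3, log2 fold change -0.98, adjusted p = 0.0307), the docking protein GAB1 fell by 0.71 (adjusted p = 0.0317) and the PI3K regulatory subunit PIK3R1 by 0.59 (adjusted p = 0.0286). STAT5A, a transcription factor that can be activated by ERBB receptors, rose from -3.23 ± 0.20 to -1.58 ± 0.39 (SD, n = 3, log2 fold change 1.65, adjusted p = 0.0113). SOS1, PIK3R1, GRB2 and PIK3CB, all lower, are in the study's own MAPK list and are not independent evidence. The number of calls was 1 without VC replicate 1 or VC replicate 3, 3 without VC replicate 2 and 2 without KO replicate 3, and 15 without KO replicate 1. The highest adjusted p with a library left out was 0.0864 for SOS1, without VC replicate 3, and 0.0954 for GAB1 and 0.0858 for PIK3R1, without VC replicate 1, while STAT5A had at most 0.0477.

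Of 24 attenuators and endocytic genes, which switch receptors off or carry them to the lysosome, 23 were tested, and 8 were higher and 2 lower in KO, with a median of 0.028. ERRFI1 (MIG6), a feedback inhibitor that binds the EGFR kinase, was at 4.55, 4.66 and 4.55 in VC and 6.27, 6.91 and 6.37 in KO. It rose by 1.93 on the log2 scale (standard error 0.18, adjusted p = 0.00789), which was the largest of the list, with 0.0412 the highest adjusted p when libraries were left out singly. CBLB, a ubiquitin ligase that marks EGFR for degradation, rose by 1.22 (adjusted p = 0.00967, at most 0.0444), and RNF41, a ubiquitin ligase for ERBB3, by 0.60 (adjusted p = 0.0158). The phosphatase PTPN1 (-0.34, adjusted p = 0.024) and SOCS4 (-0.34, adjusted p = 0.0362) fell. The list had 2 calls without VC replicate 1, VC replicate 3 or KO replicate 3 and 3 without VC replicate 2, and the highest adjusted p was 0.0623 for RNF41 and 0.0896 for PTPN1, without VC replicate 3, and 0.104 for SOCS4, without KO replicate 3.

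**Figure D4:**
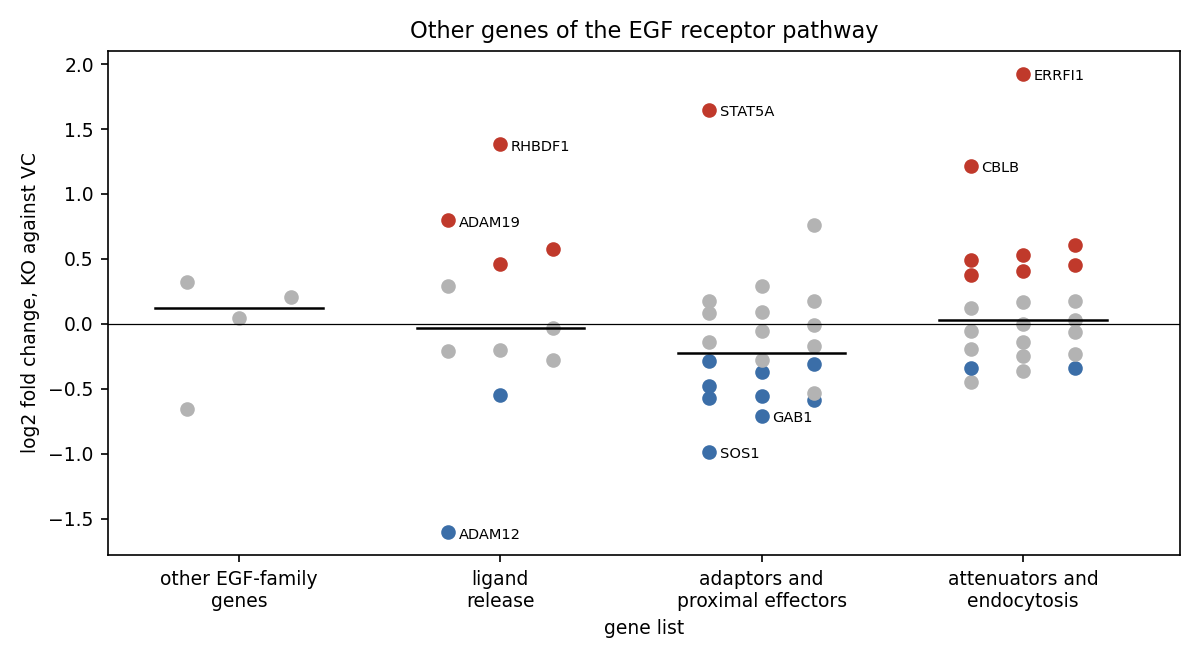
Log2 fold change of KO against VC (vertical axis) of each tested gene in the 4 pathway lists (horizontal axis), with red for higher, blue for lower and grey for not past the threshold, black lines at list medians and names on called genes with the largest changes. ERRFI1, STAT5A, RHBDF1 and CBLB stand highest, and ADAM12 and SOS1 lowest.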

How the data were processed

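RNA of 3 VC and 3 CNTNAP4 KO libraries was sequenced by the authors on an Illumina NextSeq instrument after a stranded mRNA kit. Among the software named in the methods are Partek Genomics Suite and the Server and Workbench of CLC Genomics, and the submitters' processing notes list CASAVA, STAR, Partek and GRCh38.p13. The authors deposited log2 signals, quantile-normalized between libraries, with empty cells for genes without a value. The linear unit, annotation and read counts are not given in the sources used here, so no counting interval was computed.

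Signals were used as deposited. The test was limma 3.58.1 (R 4.3.3, moderated without a trend), run on the 19306 genes that had 2 or more values per group. Two-sided p-values received Benjamini-Hochberg adjustment over all these genes (threshold 0.05). The fit was tested on simulated data. Single values per library were compared by exact permutation tests. The members and lists were chosen with earlier results of these data known. Beside the 10 members and CNTNAP4, the text names in each pathway list the 3 called genes with the largest change in each direction, or the gene with the smallest p where none was called, and the 3 genes most like AREG and EGFR. Other genes named are marker genes, neighbors and genes chosen after their values were seen. Alternatives covered the genes tested, centring, low signals, moderation, a replicate block, a 2-fold threshold and each library left out.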

Additional observations from a re-analysis of the deposited data

How the results depend on the processing

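AREG, HBEGF and EGFR kept their direction and an adjusted p under 0.05 in every alternative in which they were tested, and 95 of the 108 values of single members under an alternative kept both direction and side of the threshold. ERBB2 changed sign, to 0.045 with median-centred libraries and to 0.019 without VC replicate 1, and ranged from -0.12 to 0.019 when libraries were left out singly. After 1 was added to linear signals, the change was -0.14 for TGFA, -0.45 for NRG1, 0.016 for BTC and -0.032 for ERBB3. TGFA had an adjusted p of 0.0505 without moderation. Of the members, 2 were called when only the upper 50% of genes by mean signal entered, where 3 were tested, and 3 with a threshold of at least 2-fold. Single libraries left out gave 3 to 5 calls of members, 0 to 1 of other family genes, 1 to 7 of ligand release, 1 to 15 of adaptors and 2 to 13 of attenuators. At least 2-fold changes left 2 genes of ligand release, 1 adaptor and 2 attenuators.

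The replicate numbers are shared by the groups, but same-numbered libraries did not deviate together (correlations 0.023, 0.005 and -0.007 over 17698 genes), and not every library was most like its own number. A replicate block gave 4 members called, with adjusted p values of 0.0665 for TGFA, 0.0525 for NRG1 and 0.0489 for BTC, and 1, 1 and 2 calls of ligand release, adaptors and attenuators. Over all genes it gave 1533 calls, against 6354 without it. All genes called numbered 1223 to 8669 with single libraries left out and 1840 with at least a 2-fold change.

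Read depth is unknown, and the low signals of EREG, BTC, EPGN and ERBB3 limit what can be said of them.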

Other observations

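The genes whose pattern over the 6 libraries was most like that of AREG, among 9650 genes with 6 values and in the upper 50% of mean signal, were MLX (Pearson's r = 0.998, log2 fold change 0.53), MSN (r = 0.998, 0.44) and ICAM1 (r = 0.997, 2.84). MLX encodes a partner of glucose-sensing transcription factors, MSN the membrane linker moesin and ICAM1 an adhesion molecule for leukocytes. ICAM1 had log2 signals of 1.91, 1.89 and 2.03 in VC and 4.41, 5.23 and 4.70 in KO, with KO replicate 2 the highest, as for AREG. Those most like EGFR were CDKN3 (r = 0.999, log2 fold change -0.90), ASAP1 (r = 0.999, -0.73) and UBASH3B (r = 0.999, -0.80). CDKN3 encodes a phosphatase of cyclin-dependent kinases, ASAP1 an activator of ARF GTPases and UBASH3B a phosphatase. All points share the same 6 libraries and the difference between the groups, and 1132 genes for AREG and 1185 for EGFR had an r above 0.95, so these genes stand out little from many others.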
